A study of Mus musculus with 15 samples.

Results

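The T cell receptor (TCR) signalling cascade was described here through 36 genes that carry the signal from the receptor to gene expression. They were listed as adaptors, kinases, phosphatases and effectors of TCR signalling. The rule itself uses no measured value, but the list was chosen with earlier results of these data known. Of these, 35 were measured, among 18193 genes on the array with a single gene symbol, and all 35 were among the 11902 genes tested. Lck, the Src family kinase bound to the CD4 and CD8 coreceptors, is not analysed here. Each gene was read from 1 probe set, a group of short probes against 1 or several transcripts, and its signal is the brightness of that probe set on a linear scale. Signals below 32 were set to 32, and differences are given on the log2 scale, where 1 unit is a factor of 2.

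The samples were 9 mouse peripheral T cell lymphomas (mPTCL 1 to 9), 3 samples of activated T cells and 3 of resting T cells, each on 1 array. The lymphomas are labelled p53KO and arose from T cells lacking p53, the tumour suppressor that guards against DNA damage, after transfer into C57BL/6 CD3KO mice, which lack CD3, the signalling chains of the receptor. They were sorted from liver. The activated T cells (activated in vitro, the stimulus not given in the sources used here) and the resting T cells came from 5-week-old p53 KO mice on the C57Bl/6 background and were sorted from liver or spleen, the organ not being given per sample. All groups therefore lacked p53. The growth protocol of the normal samples mentions injecting mice every 2 weeks with PBS or killed Streptococcus pneumoniae, without saying whether the donors used here were injected. Replicates are not said to be separate animals, so a p-value here reflects variation between these samples alone, part of which may be technical.

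The 9 lymphomas differed among themselves far more than the normal cells. Correlations between arrays, across the genes tested, were 0.761 to 0.924 in lymphomas, 0.970 to 0.974 in activated T cells and 0.968 to 0.976 in resting T cells. The mean log2 signal of 5 measured T cell markers (CD3 chains and Cd2) lay between 8.82 and 12.34 in lymphomas, between 12.81 and 12.90 in activated cells and between 12.99 and 13.31 in resting cells, and Cd3e was at 5.68 in mPTCL 3 and at the floor of 5 in mPTCL 4. The mean of 10 neutrophil markers lay between 5.63 and 11.78 in lymphomas, 5.46 and 5.77 in activated cells, and 5.74 and 5.84 in resting cells. In 7 lymphomas (1, 2, 4, 5, 6, 8 and 9) it exceeded that of every normal array by more than 2 log2 units, and S100a9, Lcn2 and Cxcr2 were at the floor in all activated arrays. Among these lymphomas, Cxcr2 was also at the floor in mPTCL 2, 4, 6 and 9, and at 6.3, 6.76 and 6.29 in mPTCL 1, 5 and 8. Markers also differed within an array, as in mPTCL 9, with Ltf at 13.65 and Mmp9 at 5.08. The mean of 8 B cell markers lay more than 1 log2 unit above every normal array in mPTCL 1 and 5, at 10.60 and 11.41. Their part in the results below was not tested, and calls that changed without the 7 lymphomas high in neutrophil markers are given below with their values; this leaves 2 lymphomas, mPTCL 3 and 7. In a bulk sample, fewer cells of a type and less RNA per cell cannot be told apart.

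An antigen bound to the TCR is signalled inward by Src family kinases, which phosphorylate the CD3 chains, and by Zap70, which docks there and phosphorylates the scaffold proteins LAT and SLP-76. The scaffold gathers adaptors, Tec family kinases, exchange factors and phospholipase C. The products of phospholipase C, diacylglycerol among them, lead to calcium release and drive NFAT, Ras and NF-kB. Phosphatases, ubiquitin ligases and diacylglycerol kinases hold the signal back. Mature T cell lymphomas are known to vary in how much of this machinery they keep.

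In lymphomas, 7 of the 35 genes were lower than in resting T cells and 0 were higher, where a call needed at least a 2-fold change and a limma adjusted p under 0.05. Those that fell were the kinases Csk and Prkcq, the adaptors Fyb, Sit1 and Nck1, the Ras activator Rasgrp1 and the diacylglycerol kinase Dgka. The same rule called 6.84% of all genes tested lower and 7.03% higher, and 20% of the signalling genes lower. Of the 35 differences, 32 were below 0, with a median of -0.88 against -0.02 over all genes tested. Every lymphoma lay below every resting array for 16 genes, against 11.0% of all genes tested, and above for 0 genes, against 8.36%. At the adjusted p alone 10 genes were lower, adding Was, Ptprc and Dgkz, against 9.07% of all genes, and 0 were higher, against 8.90%. Without the 7 lymphomas high in neutrophil markers 10.8% of all genes were called in either direction, and 5 of the 7 signalling genes kept the call. Fyb, at -0.53 (adjusted p = 0.20), and Rasgrp1, at -2.28 (adjusted p = 0.11), did not. Any batch between lymphomas and normal cells cannot be told apart from the group.

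Against activated T cells, 10 of the 35 genes were lower in lymphomas and 0 were higher. These were Csk, Prkcq, Fyb, Nck1, Rasgrp1 and Dgka, the adaptor Themis, the ubiquitin ligase Cblb, the NF-kB protease Malt1 and the transcription factor Nfatc2. Of all genes tested, 8.28% were called lower and 7.04% higher, against 28.6% and 0% of the signalling genes. The median difference was -1.03 against -0.08 over all genes. Every lymphoma lay below every activated array for 18 genes, against 12.4% of all genes tested, and above for 0, against 9.78%. At the adjusted p alone 12 genes differed, against 20.6% of all genes. All 12 were lower (10.5% of all genes; 10.1% higher). Both lymphoma comparisons use the same 9 lymphoma arrays and are not independent. Without the 7 lymphomas high in neutrophil markers 8 signalling genes were called, with Dgkz lower and Trat1 higher, against 14.7% of all genes in either direction. The calls lost were Csk at -0.77 (adjusted p = 0.032, under 2-fold), Themis at -1.38 (adjusted p = 0.075), Rasgrp1 at -2.46 (adjusted p = 0.084) and Malt1 at -1.69 (adjusted p = 0.054). Leaving out activated sample 2 or 3 left 6 of the 10 calls, without Themis, Nck1, Malt1 and Nfatc2. Of all genes 7.80% and 7.78% were then called.

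Activation in culture changed 5 of the 35 genes by this rule. Cblb and Themis rose, and Trat1, Sit1 and Ptpn6 fell. Among all genes tested 8.45% were called higher and 4.23% lower, against 5.71% and 8.57% of the signalling genes. At an adjusted p alone, 18 of the 35 genes differed, 8 higher and 10 lower, against 30.9% of all genes tested (15.4% higher and 15.5% lower). Activated and resting arrays did not overlap for 11 higher and 13 lower genes, and for 23.3% of all genes in each direction. The median difference was -0.03 against 0.02 over all genes. When all 15 arrays entered 1 fit, which takes the lymphomas' spread for the normal cells too, Cblb alone kept its call. That fit called 3.34% of all genes.

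**Figure D1:**
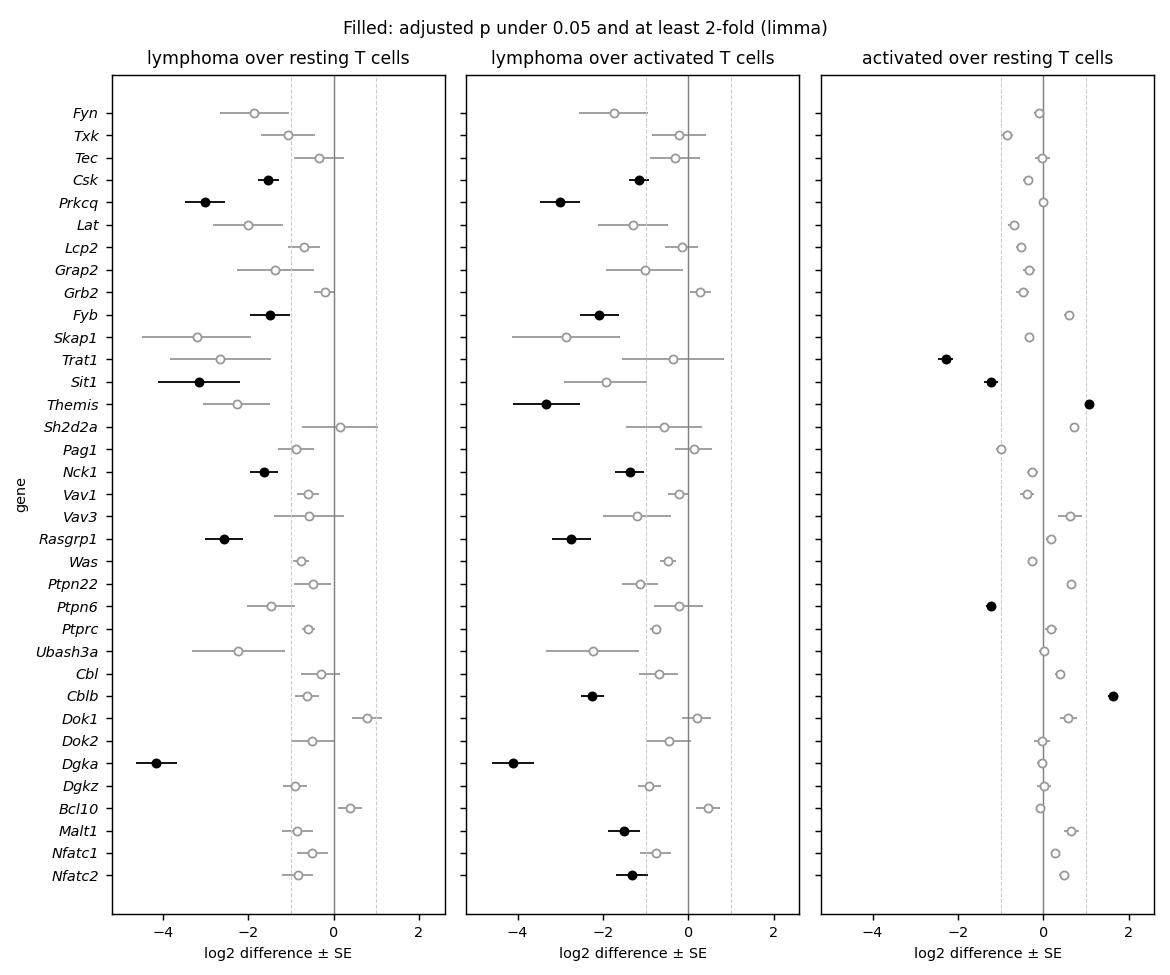
The log2 difference of each of 35 TCR signalling genes with its standard error (horizontal axis), for lymphomas (n = 9) over resting T cells (n = 3), lymphomas over activated T cells (n = 3) and activated over resting T cells. Filled points passed the adjusted p and the 2-fold threshold (dashed lines): 7, 10 and 5 genes by comparison, and those of both lymphoma panels all lie left of 0.

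Dgka, Prkcq and Rasgrp1, the 3 genes far below all normal arrays in the most lymphomas, and Cblb, the called gene with the largest rise on activation, are shown with the 250 bases before their start in RefSeq, on mouse GRCm38.p6. They lie at chr10:128745085-128745334 (minus strand, the first of 4 starts of Dgka), chr2:11172132-11172381 (plus strand, Prkcq), chr2:117342878-117343127 (minus strand, Rasgrp1) and chr16:52031299-52031548 (plus strand, Cblb), and capitals mark GGAAG, the core letters bound by ETS factors, on either strand.
Dgka: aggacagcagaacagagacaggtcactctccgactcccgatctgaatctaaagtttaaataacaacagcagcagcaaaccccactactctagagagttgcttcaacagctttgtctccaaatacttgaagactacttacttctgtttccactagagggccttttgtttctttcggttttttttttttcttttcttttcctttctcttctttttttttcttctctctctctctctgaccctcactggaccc
Prkcq: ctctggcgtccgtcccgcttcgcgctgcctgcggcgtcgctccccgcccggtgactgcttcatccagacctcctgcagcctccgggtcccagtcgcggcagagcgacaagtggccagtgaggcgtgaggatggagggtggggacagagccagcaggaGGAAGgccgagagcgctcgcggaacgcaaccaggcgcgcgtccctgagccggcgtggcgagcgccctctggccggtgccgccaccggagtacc
Rasgrp1: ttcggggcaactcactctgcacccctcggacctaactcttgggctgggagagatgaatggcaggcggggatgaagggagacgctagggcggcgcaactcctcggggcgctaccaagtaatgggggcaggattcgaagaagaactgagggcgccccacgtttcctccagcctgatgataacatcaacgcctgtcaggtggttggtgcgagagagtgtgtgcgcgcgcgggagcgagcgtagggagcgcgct
Cblb: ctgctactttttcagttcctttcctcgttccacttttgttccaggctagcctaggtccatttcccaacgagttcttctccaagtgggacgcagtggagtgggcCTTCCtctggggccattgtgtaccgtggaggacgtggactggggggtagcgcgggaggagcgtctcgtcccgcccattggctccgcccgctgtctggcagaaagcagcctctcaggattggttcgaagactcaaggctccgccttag
GGAAG stood once before Prkcq, once on the opposite strand before Cblb, and in neither of the other windows printed, while the windows before the other 3 starts of Dgka, not printed, held it 2, 3 and 1 times over both strands. It was in 33 of 44 promoters of 29 of the signalling genes with an entry, and in 64.1% of 32851 promoters in all. TGTGGT, the core of RUNX sites, was in 5 of the 44, against 14% of all, and TGTTTAC, the core of forkhead sites, in 2, against 3.17%, with both strands searched. No match overlapped another in the windows printed, and these are counts of letters only.

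Among the proximal kinases, 2 of 5 measured were called lower in both lymphoma comparisons. Signals of lymphomas are given here as the lowest, median and highest of 9, and those of normal cells by sample. Prkcq encodes protein kinase C theta, which links diacylglycerol at the synapse to NF-kB. Its lowest, median and highest signals were 485, 1046 and 2520 in lymphomas, against 8593, 9156 and 8769 in activated cells and 8528, 9997 and 8295 in resting cells. Every lymphoma was lower than every normal array, and the groups of normal cells overlapped. Prkcq was 8.09-fold lower in lymphomas than in resting cells (log2 difference -3.02 ± 0.47 SE, adjusted p = 0.0011) and 8.02-fold lower than in activated cells (-3.00 ± 0.47, adjusted p = 0.0015). In mPTCL 3 and 7 alone these differences were -1.86 and -1.85, both still called.

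Csk encodes the kinase that switches Src family kinases off by phosphorylating their tails. Its signals were 1358, 2568 and 3228 at the lowest, median and highest in lymphomas, against 4648, 5956 and 5291 in activated cells and 7343, 6449 and 6677 in resting cells. All lymphomas lay below all normal arrays, within a narrow span. Csk fell 2.88-fold against resting cells (-1.52 ± 0.24, adjusted p = 0.0011) and 2.22-fold against activated cells (-1.15 ± 0.24, adjusted p = 0.0061). Between activated and resting cells Csk differed by -0.37 ± 0.11 (adjusted p = 0.048), under 2-fold.

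The other measured kinases were not called in any comparison. Fyn, the second Src family kinase of T cells, had lymphoma signals of 175, 2405 and 4851 at the lowest, median and highest, against 6242, 6689 and 6978 in activated cells and 7947, 7637 and 5980 in resting cells. All 9 lymphomas were below all 6 normal arrays, but they ranged so widely, with mPTCL 3 the lowest, that the difference of -1.85 ± 0.81 from resting cells did not pass (adjusted p = 0.13). A second Fyn probe set was at -0.83. Txk, a Tec family kinase of T cells, had 194, 1596 and 2895 in lymphomas, against 1804, 1507 and 1379 in activated and 3055, 2966 and 2398 in resting cells. Lymphomas overlapped both normal groups, and activated cells lay below all resting arrays, at -0.84 ± 0.14 (adjusted p = 0.0061). Without the lymphomas high in neutrophil markers Txk was 0.085 from activated cells (adjusted p = 0.86). Tec, the family's founding member, had 302, 641 and 3051 in lymphomas, against 1144, 849 and 1007 in activated and 1112, 813 and 1143 in resting cells, with all groups overlapping.

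Among the 12 scaffold adaptors, 3 were lower than in resting cells (Fyb, Sit1 and Nck1) and 3 lower than in activated cells (Fyb, Themis and Nck1). Nck1, an adaptor that couples the receptor to actin, had 284, 696 and 974 in lymphomas, against 1960, 1531 and 1539 in activated and 1839, 1922 and 2223 in resting cells. No lymphoma reached the lowest normal array. The differences were -1.63 ± 0.33 from resting cells (adjusted p = 0.0054) and -1.38 ± 0.33 from activated cells (adjusted p = 0.012). The 2 other Nck1 probe sets gave -1.002 and -0.55 from resting cells. Calls for Nck1 and Fyb were lost in both comparisons when probe sets matching several transcripts were left out.

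Fyb encodes ADAP, which joins SLP-76 to integrin activation. Its lowest, median and highest signals in lymphomas were 1799, 2491 and 7827, against 14720, 12710 and 13990 in activated cells and 9204, 10010 and 8188 in resting cells. The 3 groups did not overlap, with activated cells on top. Fyb was 4.25-fold lower in lymphomas than in activated cells (-2.09 ± 0.46, adjusted p = 0.0078) and 2.81-fold lower than in resting cells (-1.49 ± 0.46, adjusted p = 0.040), and this second call was lost in 13 of 27 alternative settings. Skap1, the partner of ADAP, had 59.6, 1850 and 4610 in lymphomas, against 7952, 7100 and 7264 in activated and 10060, 9089 and 9157 in resting cells. The groups did not overlap, and mPTCL 3 and 4 stood far below the other lymphomas, at 71.3 and 59.6. With that spread the difference from resting cells, -3.21 ± 1.27, did not pass (adjusted p = 0.095), nor did that from activated cells, -2.87 ± 1.27 (adjusted p = 0.12). The 2 other Skap1 probe sets, dimmer in normal cells, gave smaller differences of -0.97 and -1.54 from resting cells, and on both mPTCL 3 and 4 were at the floor.

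Sit1 and Trat1 encode small membrane adaptors of the TCR complex. Sit1 signals were 32.2, 742 and 1302 at the lowest, median and highest in lymphomas, against 1949, 1617 and 1388 in activated and 3309, 3697 and 4489 in resting cells. Each group lay apart from the others, with mPTCL 9 just above the floor. Sit1 was 8.88-fold lower in lymphomas than in resting cells (-3.15 ± 0.97, adjusted p = 0.040), a call lost in 6 of 27 settings, and 2.32-fold lower in activated than in resting cells (-1.22 ± 0.16, adjusted p = 0.0028). Its difference from activated cells was -1.93 ± 0.97 (adjusted p = 0.17). Trat1 had 27.9, 741 and 2129 in lymphomas, against 499, 438 and 456 in activated and 1892, 2079 and 2964 in resting cells. Activated cells lay below all resting arrays, 4.89-fold lower (-2.29 ± 0.18, adjusted p = 4.6e-04), while lymphomas spanned both normal groups. In mPTCL 2, 5 and 6 Trat1 was at 27.9, 68.5 and 56.7, and in the other lymphomas between 369.7 and 2129. Trat1 was 1.76 log2 units higher than in activated cells in the pair of lymphomas low in neutrophil markers (adjusted p = 0.024), mPTCL 3 and 7, with -0.37 ± 1.19 over all 9 (adjusted p = 0.85). A second Trat1 probe set was further down over all 9 lymphomas, at -1.40 from activated cells. From resting cells it was at -3.12, against -2.655 on the probe set used.

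Themis, an adaptor needed for thymocyte selection that regulates Ptpn6, rose with activation. Its signals were 7359, 7807 and 7223 in activated cells, against 3360, 3598 and 3751 in resting cells, which did not overlap (1.06 ± 0.08, adjusted p = 3.8e-04). In lymphomas the lowest, median and highest were 193, 531 and 4553, all below the activated arrays, and 8 of 9 below the resting ones, mPTCL 3 being the exception. Themis was 10.1-fold lower in lymphomas than in activated cells (-3.33 ± 0.78, adjusted p = 0.011) and differed by -2.27 ± 0.78 from resting cells (adjusted p = 0.060). Its 3 other probe sets gave differences between -3.42 and -3.22 from activated cells.

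The core scaffold was not called in any comparison. Lat, the membrane scaffold on which the complex is built, had lymphoma signals of 341, 3435 and 8082 at the lowest, median and highest, against 6853, 5301 and 5827 in activated and 10650, 8887 and 9576 in resting cells. The lymphomas lay below all resting arrays, mPTCL 5 and 9 by far at 546 and 341, and overlapped the activated ones. The difference was -2.00 ± 0.82 from resting cells (adjusted p = 0.11), and activated cells were at -0.70 ± 0.12 (adjusted p = 0.0073). Lcp2, which encodes SLP-76, had 779, 2246 and 4191 in lymphomas, against 2824, 2098 and 2392 in activated and 3262, 3720 and 3471 in resting cells, with mPTCL 7 above every normal array and mPTCL 5 the lowest. A second Lcp2 probe set was further down, at -2.43 from resting cells where the first was at -0.69. Without the lymphomas high in neutrophil markers the first was at 0.37 from activated cells (adjusted p = 0.41), against -0.16 with all.

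Grap2 encodes GADS, which tethers SLP-76 to LAT. It was listed at 14.0, under the floor, in mPTCL 5 and between 824 and 1556 in the other 8 lymphomas, against 1654, 1528 and 1252 in activated and 1656, 2071 and 1845 in resting cells. All lymphomas lay below all resting arrays, and the difference of -1.36 ± 0.90 did not pass (adjusted p = 0.31). A second Grap2 probe set read 108.7 in mPTCL 5, again the lowest lymphoma but above the floor, and differed by -1.84 from resting cells. Grb2, the adaptor that brings the Ras activator Sos, had 1139, 1833 and 2685 in lymphomas, against 1540, 1605 and 1206 in activated and 2207, 2148 and 1714 in resting cells. It differed by -0.21 ± 0.25 from resting cells and 0.27 ± 0.25 from activated cells, with overlapping groups.

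Sh2d2a, a T cell adaptor that binds Lck, was the one scaffold gene with a positive difference from resting cells, 0.15 ± 0.89 (adjusted p = 0.93). It ranged from 513 in mPTCL 5 over a median of 4669 to 14260 in mPTCL 9, against 4206, 4637 and 4333 in activated and 2842, 2870 and 2307 in resting cells. Lymphomas lay on both sides of the normal cells, and activated cells lay above all resting arrays (0.72 ± 0.11, adjusted p = 0.0041). Pag1, which anchors Csk at the membrane, had 1122, 1613 and 4584 in lymphomas, against 2043, 1652 and 1933 in activated and 3769, 3902 and 3535 in resting cells. Activated cells were below all resting ones, by 1.998-fold (adjusted p = 0.0011), just under the fold threshold, and lymphomas overlapped both groups.

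**Figure D2:**
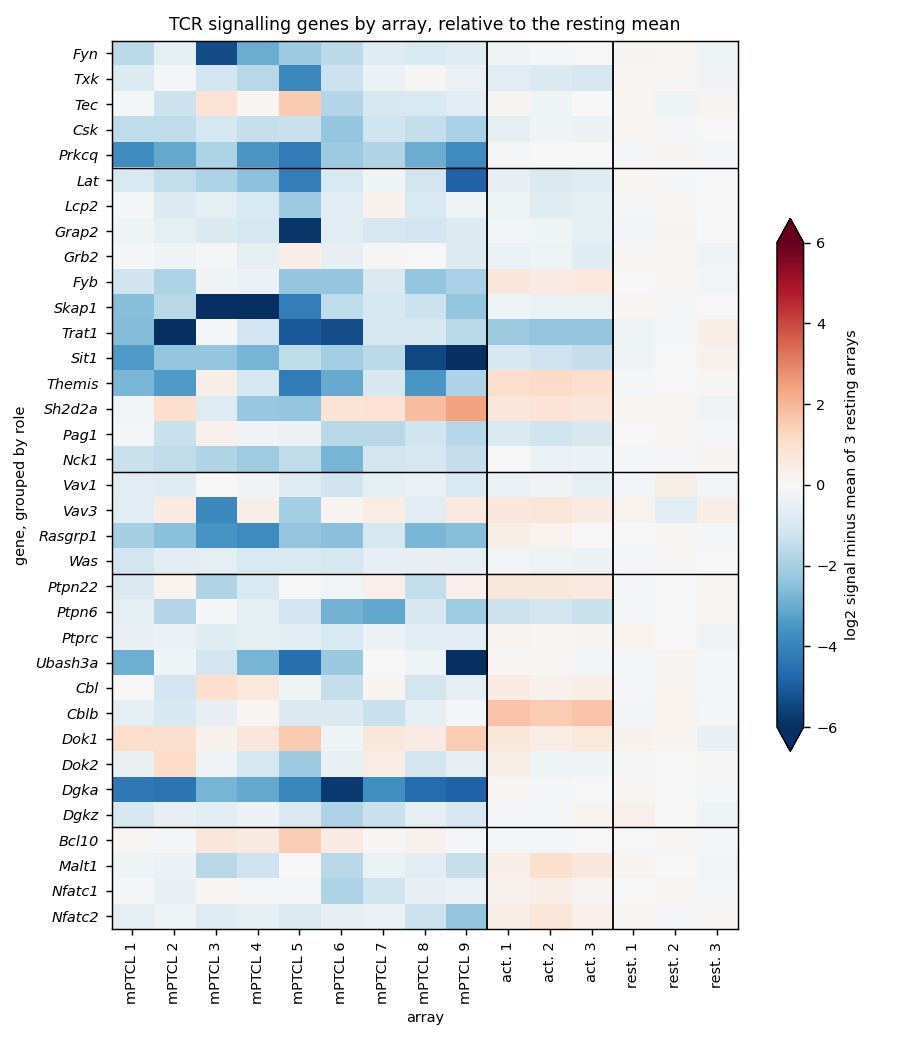
Log2 signal of 35 TCR signalling genes (rows, grouped by role from kinases at the top to NF-kB and NFAT effectors at the bottom) in 9 lymphomas, 3 activated and 3 resting samples (columns), minus the mean of the 3 resting arrays, with colours ending at 6 units either way. The Dgka, Prkcq and Rasgrp1 rows are blue in all 9 lymphomas, while Trat1, Skap1, Sit1 and Ubash3a are dark blue in some lymphomas and pale in others.

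Of the exchange factors and cytoskeletal genes, Rasgrp1 alone was called. Rasgrp1 encodes the diacylglycerol-bound exchange factor that turns Ras on in T cells. Its lowest, median and highest signals were 850.3, 2053 and 5912 in lymphomas, against 14870, 13730 and 11730 in activated and 12010, 12240 and 11210 in resting cells. All lymphomas were below all normal arrays, with mPTCL 7 nearest to them. Rasgrp1 was 6.68-fold lower in lymphomas than in activated cells (-2.74 ± 0.45, adjusted p = 0.0018) and 5.90-fold lower than in resting cells (-2.56 ± 0.44, adjusted p = 0.0021). Its 3 other probe sets gave -3.00 to -2.71 from activated and -2.53 to -2.29 from resting cells.

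Vav1, an exchange factor of lymphocytes that acts on the actin cytoskeleton, had 894, 1307 and 2116 in lymphomas, against 1605, 1781 and 1422 in activated and 1829, 2602 and 1862 in resting cells. Lymphomas overlapped both normal groups, at -0.60 ± 0.25 from resting (adjusted p = 0.12) and -0.22 ± 0.25 from activated cells (adjusted p = 0.54), the second being 0.12 without the lymphomas high in neutrophil markers. Its relative Vav3 was listed at 0.994, under the floor, in mPTCL 3 and between 114 and 701 in the others, against 755, 767 and 659 in activated and 546, 304 and 626 in resting cells. Was encodes WASP, which starts actin branching, and had 1581, 2168 and 2534 in lymphomas, against 3127, 2842 and 2770 in activated and 3353, 3642 and 3562 in resting cells. The Was groups did not overlap, and the differences of -0.76 ± 0.19 from resting cells (adjusted p = 0.015) and -0.48 ± 0.19 from activated cells (adjusted p = 0.083) were under 2-fold.

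Among the 10 phosphatases and negative regulators, Dgka was lower in both lymphoma comparisons and Cblb in that with activated cells. Dgka encodes diacylglycerol kinase alpha, which removes the diacylglycerol that Rasgrp1 and Prkcq need. Its lowest, median and highest lymphoma signals were 438, 1196 and 3340, against 24520, 21270 and 23020 in activated and 25270, 22740 and 22300 in resting cells. Every lymphoma was far below every normal array, mPTCL 6 the lowest and mPTCL 3 the highest, and the normal groups overlapped. Dgka was 17.7-fold lower than in resting cells (-4.15 ± 0.49, adjusted p = 2.1e-04) and 17.4-fold lower than in activated cells (-4.12 ± 0.49, adjusted p = 2.9e-04), and in all 27 alternative settings of each comparison it was called. In mPTCL 3 and 7 alone the differences were -3.25 and -3.21. It had the most negative difference of the 35 genes in both comparisons.

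Cblb encodes a ubiquitin ligase that raises the threshold for activation. Its signals were 714, 1173 and 1917 at the lowest, median and highest in lymphomas, against 5781, 5082 and 5794 in activated and 1596, 2073 and 1722 in resting cells. Activated cells stood above both other groups, and lymphomas overlapped resting cells. Cblb rose 3.10-fold with activation (1.63 ± 0.12, adjusted p = 3.7e-04). In lymphomas it was 4.78-fold lower than in activated cells (-2.26 ± 0.27, adjusted p = 2.9e-04) and differed by -0.62 ± 0.28 from resting cells (adjusted p = 0.13). Its relative Cbl had 1524, 3465 and 8322 in lymphomas, against 5878, 4958 and 5485 in activated and 3958, 4676 and 3805 in resting cells, with lymphomas on both sides of the normal arrays. The Cbl differences of -0.30 from resting and -0.69 from activated cells were 0.59 and 0.20 without the lymphomas high in neutrophil markers, none of them called. Its 2 other probe sets gave -0.67 and -1.24 from resting and -1.29 and -1.96 from activated cells. With averaged probe sets Cbl was called lower than in activated cells.

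Ptpn6 encodes SHP-1, a phosphatase that reverses early phosphorylation. Its signals were 3806, 4337 and 3592 in activated cells, against 8759, 8978 and 9836 in resting cells, without overlap (-1.24 ± 0.10, adjusted p = 4.8e-04). Lymphomas ran from 1062 over a median of 4116 to 8724, all below the resting arrays and on both sides of the activated ones, at -1.46 ± 0.57 from resting cells (adjusted p = 0.091). A second Ptpn6 probe set differed by -0.21 between activated and resting cells, and the call was lost when the probe sets were averaged. Ptpn22, a phosphatase that acts on Lck and Zap70 together with Csk, had 2575, 7816 and 11020 in lymphomas, against 14310, 14010 and 13240 in activated and 8335, 8798 and 9471 in resting cells. Lymphomas lay below all activated arrays (-1.14 ± 0.43, adjusted p = 0.074), which lay above all resting ones (0.64 ± 0.09, adjusted p = 0.0029).

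Ptprc encodes CD45, the membrane phosphatase that primes Src family kinases. Its signals were 16260, 19950 and 24150 in lymphomas, against 35500, 33650 and 34680 in activated and 35290, 30650 and 26670 in resting cells, and no lymphoma reached a normal array. The differences were -0.77 ± 0.13 from activated (adjusted p = 0.0024) and -0.59 ± 0.15 from resting cells (adjusted p = 0.016), both under 2-fold. Dgkz, the second diacylglycerol kinase of T cells, had 2690, 5238 and 7442 in lymphomas, against 9052, 9051 and 11310 in activated and 11860, 9449 and 8006 in resting cells. The lymphomas again lay below every normal array, while the normal groups overlapped, at -0.92 ± 0.27 from activated (adjusted p = 0.028) and -0.90 ± 0.27 from resting cells (adjusted p = 0.037), both under 2-fold.

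Ubash3a, which encodes the phosphatase STS-2, fell into widely different levels across lymphomas. It was at 35.2 in mPTCL 9 and 97.3 in mPTCL 5, with a median of 474 and a highest value of 2211 in mPTCL 7, against 2332, 2365 and 2002 in activated and 2054, 2452 and 2137 in resting cells. Of 9 lymphomas 8 lay below every normal array, and the difference from resting cells was -2.23 ± 1.08 (adjusted p = 0.17). Dok1 and Dok2 encode docking proteins that recruit a Ras inhibitor. Dok1 had 457, 873 and 1592 in lymphomas, against 849.8, 741 and 844 in activated and 646, 605 and 399.9 in resting cells, a difference of 0.78 ± 0.35 from resting cells that did not pass (adjusted p = 0.14). Dok2 had 278, 920.4 and 2705 in lymphomas, against 1668, 1048 and 1045 in activated and 1202, 1253 and 1308 in resting cells. Lymphomas overlapped both normal groups for Dok1 and for Dok2. Without the lymphomas high in neutrophil markers Dok1 was at -0.12 from activated cells, and Dok2 at 0.16 from activated and 0.12 from resting cells, signs opposite to those over all 9.

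Of the NF-kB and NFAT effectors, Malt1 and Nfatc2 were lower in lymphomas than in activated cells. Malt1, the protease that Bcl10 brings into the NF-kB pathway, had 472, 967 and 1485 in lymphomas, against 1896, 2923 and 2358 in activated and 1651, 1513 and 1338 in resting cells. Lymphomas lay below all activated arrays (-1.50 ± 0.37, adjusted p = 0.014) and mPTCL 5 alone reached into the resting range (-0.85 ± 0.37, adjusted p = 0.13). Nfatc2, a calcium-driven transcription factor, had 385, 1325 and 1597 in lymphomas, against 2633, 3302 and 2507 in activated and 2094, 1841 and 2067 in resting cells. The groups did not overlap, with mPTCL 9 the lowest, and the difference from activated cells was -1.33 ± 0.37 (adjusted p = 0.023), against -0.84 ± 0.37 from resting cells (adjusted p = 0.13). The 5 other Nfatc2 probe sets lay between -2.36 and -0.49 from activated cells.

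Nfatc1, a related factor, had 667, 1861 and 2645 in lymphomas, against 2848, 3207 and 2701 in activated and 2341, 2626 and 2282 in resting cells, all lymphomas being below the activated arrays (-0.77 ± 0.36, adjusted p = 0.14). Bcl10 had 1921, 2497 and 5647 in lymphomas, against 1938, 1900 and 2059 in activated and 2036, 2178 and 1970 in resting cells. It had a positive difference in both comparisons, 0.46 ± 0.28 from activated (adjusted p = 0.27) and 0.39 ± 0.28 from resting cells (adjusted p = 0.36), with overlapping groups and mPTCL 5 the highest.

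**Figure D3:**
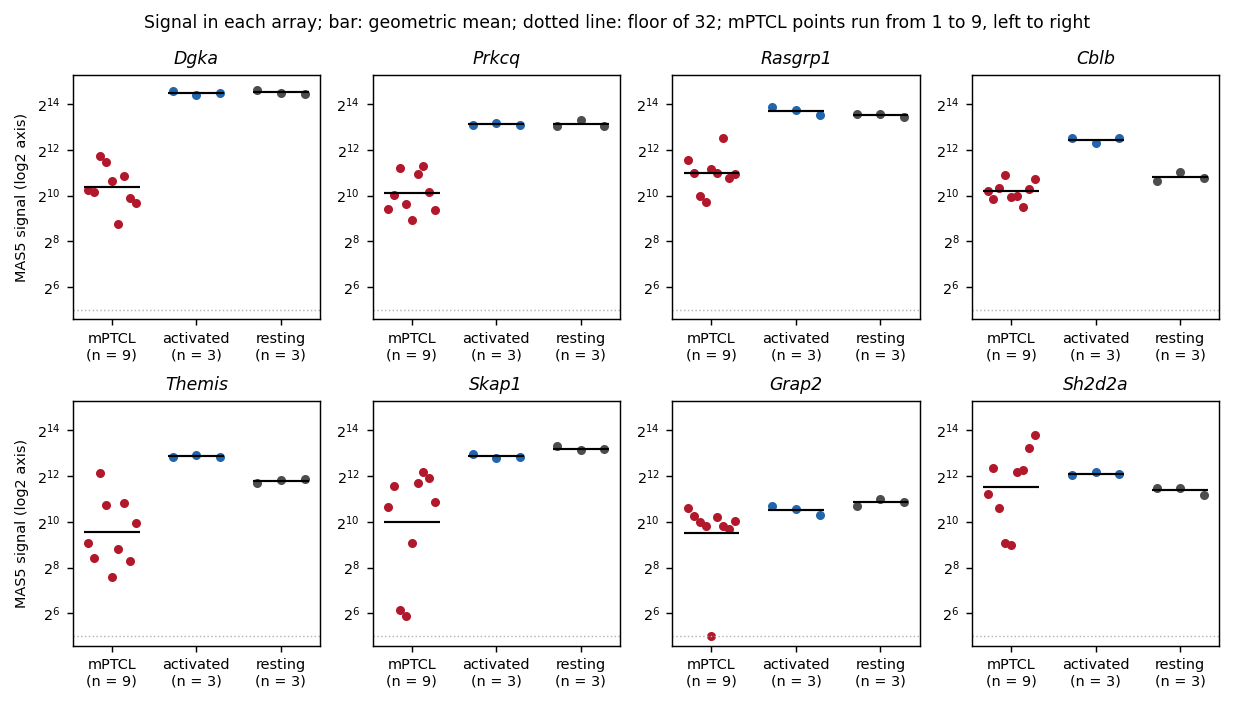
Signal of 8 genes in each array (log2 axis, MAS5 signal; values under 32 at the dotted floor), with bars at the mean of log2 values, for 9 lymphomas, 3 activated and 3 resting samples. All lymphomas lie below both normal groups for Dgka, Prkcq, Rasgrp1 and Skap1, Cblb is high in activated cells, the Grap2 probe set plotted is at the floor in mPTCL 5, and Sh2d2a lies on both sides of the normal cells.

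The genes were also set against the lowest of the 6 normal arrays, 1 lymphoma at a time. The number of signalling genes more than 4-fold below it was 5 in mPTCL 1, 5 in mPTCL 2, 5 in mPTCL 3, 7 in mPTCL 4, 12 in mPTCL 5, 8 in mPTCL 6, 1 in mPTCL 7, 6 in mPTCL 8 and 7 in mPTCL 9. In percent these were 14.3 in mPTCL 1 to 3, against 0.865, 3.29 and 2.89 of all genes, 20 in mPTCL 4 against 1.87, and 34.3 in mPTCL 5 against 3.31. In mPTCL 6 to 9 they were 22.9 against 4.55, 2.86 against 2.25, 17.1 against 2.91, and 20 against 3.25. No signalling gene was more than 4-fold above the highest normal array in any lymphoma, against 1.57% (mPTCL 7) to 4.00% (mPTCL 4) of all genes. In mPTCL 7 Dgka was the single gene so far down. Its T cell marker mean was 12.34 and its neutrophil mean 6.03. In mPTCL 8, with a near T cell marker mean of 12.16 and a neutrophil mean of 10.72, 6 genes were so far down. In mPTCL 3, with the lowest neutrophil mean, 5.63, and a T cell marker mean of 9.19, there were 5. A link between marker means and these counts was not tested.

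Dgka was more than 4-fold below every normal array in all 9 lymphomas. Prkcq and Rasgrp1 were so in 7, Themis and Ubash3a in 5 and Skap1 in 4. Fyb and Trat1 were in 3, and Fyn, Lat, Sit1 and Sh2d2a in 2. Txk, Grap2, Nck1, Vav3 and Nfatc2 were in 1 each, and the other 18 genes in none. The gene sets differed between lymphomas. In mPTCL 5 they included Grap2, Lat, Txk, Trat1 and Sh2d2a, and in mPTCL 9 Lat, Nfatc2, Sit1 and Ubash3a. In mPTCL 3 they were Fyn, Skap1, Vav3, Rasgrp1 and Dgka. The T cell, neutrophil and B cell marker means of mPTCL 3 were 9.19, 5.63 and 6.36. The median SD of a signalling gene over the 9 lymphomas was 0.84 on the log2 scale, against 0.60 for all genes tested, while in activated cells it was 0.13 against 0.19 and in resting cells 0.15 against 0.23.

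**Figure D4:**
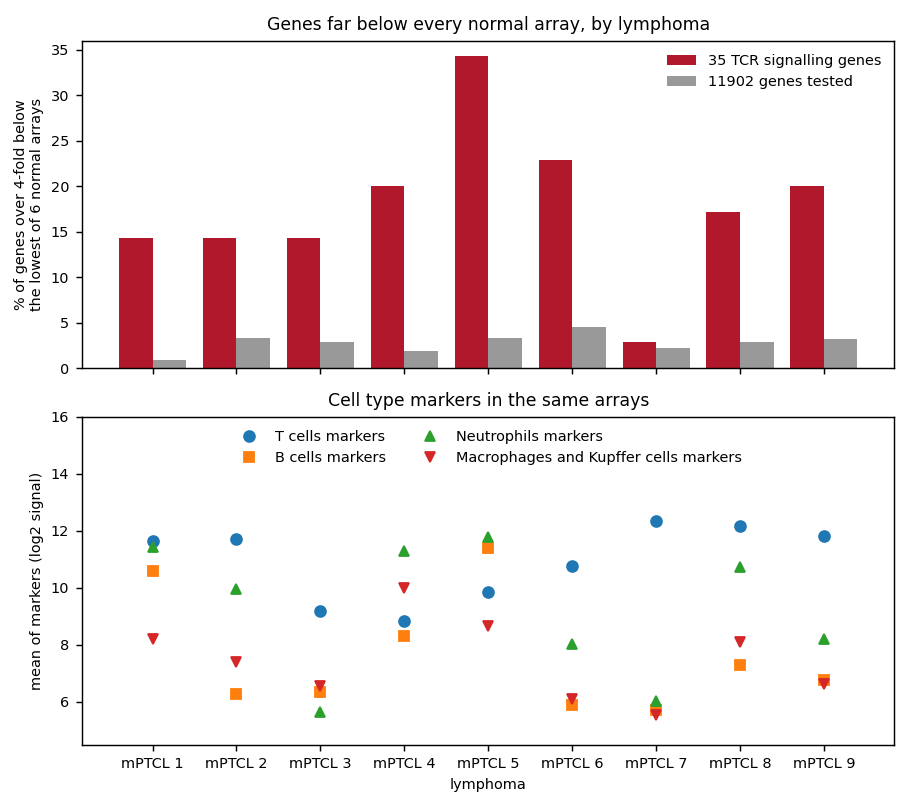
Top, the percentage of 35 TCR signalling genes (red) and of 11902 genes tested (grey) more than 4-fold below the lowest of 6 normal arrays, by lymphoma; bottom, the mean log2 signal of markers of T cells, B cells, neutrophils and macrophages in the same lymphomas. The red bar is tallest in mPTCL 5, at 34.3%, and close to the grey one in mPTCL 7. It is at 17.1% in mPTCL 8, whose T cell marker mean, 12.16, is near that of mPTCL 7, 12.34. The neutrophil marker means of mPTCL 8 and mPTCL 7 are 10.72 and 6.03.

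Of the 35 genes, 15 were listed as also used outside T cells, such as Csk, Vav1 and Ptprc. The other 20, among them Nck1, Fyb and Cblb, were not so listed, which does not make them particular to T cells. The broader group had 1 gene lower than in resting cells and 2 lower than in activated cells, which is 6.67% and 13.3% of the 15, against 6.84% and 8.28% of all genes tested, so the first share is that of the background. Its median differences were -0.59 and -0.48. The other 20 had 6 and 8 lower, or 30% and 40%, with medians of -1.56 and -1.35. The difference between the 2 subsets was not tested.

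Of 78 other pathway genes listed, 70 were tested. Against resting cells, 22 were lower and 5 higher in lymphomas, and against activated cells, 22 were lower and 1 higher. The lower share was 31.4% in both, against 6.84% and 8.28% of all genes tested, and the higher share 7.14% and 1.43%, against 7.03% and 7.04%, so that against resting cells was at the background. The receptor chains made up much of this, with 9 and 8 of 11 lower. Cd8b1, the CD8 beta chain, was at -5.99 ± 0.81 and -6.13 ± 0.81, and Cd5, an inhibitory receptor, at -5.50 ± 0.73 and -5.23 ± 0.73 from resting and activated cells in turn. Cd28, the costimulatory receptor, was at -4.51 ± 0.96 and -4.90 ± 0.96, and Cd6, a relative of Cd5, at -4.81 ± 0.79 and -4.75 ± 0.78. Cd8b1, Cd5, Cd28 and Cd6 all encode proteins of the T cell surface. Cd3e and Zap70 were not called, at -1.79 ± 1.383 and -2.41 ± 1.104 (SE) from resting cells (adjusted p = 0.39 and 0.15). Lymphomas at the floor numbered 3 for Cd6 and 1 each for Cd28, Cd8b1 and Cd3e, so the falls of these genes are lower bounds.

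Plcg1, the phospholipase that makes diacylglycerol and the calcium signal, was 0.72 ± 0.07 higher in activated than resting cells, under 2-fold (adjusted p = 0.0010), and lower in lymphomas than in activated cells (-2.18 ± 0.50, adjusted p = 0.0099). Higher in lymphomas were Rnf128, the anergy-linked ubiquitin ligase GRAIL, at 3.27 ± 0.52 from resting and 2.66 ± 0.54 from activated cells, and against resting cells Ptprj, a membrane phosphatase, at 2.15 ± 0.69, and Sh3bp2, an adaptor, at 1.43 ± 0.39. Gab2, a scaffold adaptor, was at the floor in all resting arrays and at least 4.35 log2 units higher in lymphomas. Calls of these other pathway genes were not examined without the 7 lymphomas high in neutrophil markers. Between activated and resting cells, 5 of the 70 were higher, led by Gab2 (at least 1.82), Ptprj (1.59 ± 0.41), Vav2, a broadly used exchange factor (1.44 ± 0.18), and Sh3bp2 (1.15 ± 0.29). Tespa1, an adaptor of thymocyte signalling, was the 1 lower, at -1.35 ± 0.16.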

How the data were processed

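Each sample was measured on 1 Affymetrix oligonucleotide array. Per the labels' protocols, a column kit was used to extract the RNA, and that of the normal cells was amplified by in vitro transcription from the 3′ end; for the lymphomas no kit is named in the sources used here. Each deposited value is a linear intensity, made by the authors with MAS5 in Affymetrix Expression Console, per the submitters' processing notes, which give version 1.1 for lymphomas and none for normal cells. In every array the 2% trimmed mean was 500, as checked on the values. No detection call was used. With so few arrays, their number limits the precision.

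An intensity below 32 was raised to 32, which is 5 after taking log2. The table has 45101 probe sets. A single gene symbol is paired with 34958 of them, several with 932, and no symbol with 9211. Probe sets with a single symbol were kept, except 13 controls, and 34741 symbols could be updated through the gene identifier. For a gene with several probe sets, as 23 of the 35 signalling genes have, that with the highest mean log2 value was taken. Genes reaching 100 in at least 3 of 15 arrays, 11902 in all, were tested. Groups came from the labels. limma 3.58.1 in R 4.3.3 was fitted (lmFit, then eBayes with trend) to the 2 groups of each comparison only, with Benjamini-Hochberg adjustment over all genes tested; calls needed an adjusted p under 0.05 and a 2-fold change. The fits were run first on simulated data.

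The members and lists were chosen with earlier results of these data known. All members are given. Of the other pathway genes the text names Cd3e, Zap70, Plcg1 and, per direction and comparison, at most 4 called genes with the largest change. Marker lists numbered 8. For macrophages and Kupffer cells, NK cells, hepatocytes, erythroid cells, and endothelial and stromal cells, the list mean reached 10.00, 11.93, 8.60, 10.48 and 8.22 in the highest lymphoma, against 7.44, 9.62, 5.86, 6.66 and 8.31 in the highest normal array. Alternatives changed the floor (16 or 64), added 16 before log2, dropped the filter or raised it to 200, normalised by quantiles, centred arrays on the median, averaged a gene's probe sets or left out those matching several transcripts, fitted all arrays together, used no trend or weights per group, called on the adjusted p alone, added a replicate block, or left out each array. Fits without the lymphomas high in neutrophil or B cell markers were added after the data were seen. Promoters are from RefSeq's tables. Lck and the deleted p53 gene are not analysed here, and some items are not reported here.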

Additional observations from a re-analysis of the deposited data

Results flagged for a closer look

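In 4 of 35 signalling genes tested, the lowest lymphoma lay further from the next than Dixon's critical value for 9 samples allows. Both ends were tested, and chance gives such a gap at either end in about 1 in 20 groups. The Dixon rule was applied only to the probe set used for each signalling gene. It was not run over all genes tested, so no share of them can be set beside this count. In mPTCL 5 the log2 signal was 7.60 for Txk, with the next lymphoma at 9.77, and 9.61 for Lcp2, with the next at 10.84. A second Lcp2 probe set read 5.915 in mPTCL 5, with the next lymphoma at 6.711 and the highest at 9.122. Grap2 was at the floor of 5 in mPTCL 5, with the next lymphoma at 9.69, on the probe set used; a second Grap2 probe set read 6.76 in mPTCL 5, with the next lymphoma at 7.498. Nfatc2 was at 8.59 in mPTCL 9, with the next at 9.67. The other Nfatc2 probe sets were mixed: on some mPTCL 9 was also the lowest, and on others mPTCL 1 or mPTCL 7 was. In mPTCL 5 the neutrophil and B cell marker means were the highest of the 9 lymphomas, at 11.78 and 11.41, and their part in these values was not tested.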

How the results depend on the processing

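Calls of lower signalling genes in lymphomas numbered 7 against resting and 10 against activated cells. With array weights per group these counts were 14 and 16, and 22.8% and 24.8% of all genes were called in either direction. In the main fits those shares were 13.9% and 15.3%. With a replicate block the counts of signalling genes were 7 (Lat in place of Fyb) and 7 (without Csk, Themis and Malt1). For activated against resting cells the count was 5, as in the fit without a block. The shares of all genes called with the block were 7.97%, 8.78% and 12.0%. Replicate numbers are not said to pair samples, and deviations of same-numbered arrays correlated between -0.04 and 0.05. Leaving out 1 array gave 5 to 10 calls against resting cells, 6 to 10 against activated cells (6 without activated replicate 2 or 3), and 5 to 6 for activated against resting cells. Of all genes, 6.54% to 15.5%, 7.70% to 18.2% and 10.6% to 12.6% were then called in these comparisons in turn. Activated against resting cells had 1 call with all arrays in 1 fit and 18 with the adjusted p alone, against 3.34% and 30.9% of all genes. Dgka kept its call in every setting of both lymphoma comparisons, as did Prkcq where it was measured. The cause of these changes was not tested.

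Signs turned for genes with small differences, Trat1 alone being called. Against resting cells these were Bcl10 at -0.025 without probe sets matching several transcripts, Dok2 at 0.15 with the replicate block, and Cbl at 0.59 and Dok2 at 0.12 without the lymphomas high in neutrophil markers. Against activated cells, averaging probe sets gave Grb2 -0.075 and Pag1 -0.23. The replicate block gave Txk 0.15, Lcp2 0.032, Ptpn6 0.44 and Dok2 0.19. Without the lymphomas high in neutrophil markers Txk was at 0.085, Lcp2 0.37, Trat1 1.76, Vav1 0.12, Cbl 0.20, Dok1 -0.12 and Dok2 0.16, and without those high in B cell markers Txk was at 0.14 and Pag1 at -0.069. For activated against resting cells, quantile normalisation gave Prkcq 0.033 and Dgka 0.085, and Nck1 was at 0.000838 with averaged probe sets and 0.17 without those matching several transcripts.

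Leaving out 1 array gave ranges across 0 for Sh2d2a against resting cells (-0.14 to 0.46), and against activated cells for Trat1 (-0.69 to 0.070), Pag1 (-0.028 to 0.23), Txk (-0.36 to 0.13) and Lcp2 (-0.28 to 0.023). For activated against resting cells these were Prkcq (-0.063 to 0.071), Ubash3a (-0.040 to 0.089), Tec (-0.18 to 0.086), Dok2 (-0.26 to 0.077), Dgka (-0.081 to 0.024) and Dgkz (-0.12 to 0.16). The cause was not tested. Averaging probe sets moved the median of all genes to -0.13 against activated cells, and leaving out probe sets matching several transcripts to -0.14.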
